A study of Mus musculus with 8 samples.

Results

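The genes described here encode 10 C-type lectin receptors of myeloid cells: Clec4a1, Clec4a3, Clec4d, Clec4e, Clec4n, Clec5a, Clec7a, Clec10a, Clec12a and the mannose receptor gene Mrc1. They were chosen by gene symbol, and all 10 were found among the 17364 genes of the files. RNA sequencing measured poly(A)-selected RNA of mouse macrophages derived in culture from bone marrow. The wild-type group came from wild-type mice and the other group from Sept2C111A mice, whose allele name gives an exchange of cysteine 111 of septin 2, a GTP-binding cytoskeletal protein, for alanine. Each group has 4 libraries, and all cultures were exposed for 24 h to 30 ng/ml of TNF-α, an inflammatory cytokine, so both groups share this stimulus and no untreated level was analysed here. The labels give no strain, sex or age, and do not say that libraries came from separate mice or cultures. The p-values therefore measure the spread between these libraries, which may be technical.

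C-type lectin receptors are surface proteins with which macrophages bind carbohydrates and lipids of fungi, mycobacteria and damaged cells. Mincle (Clec4e), MCL (Clec4d) and Dectin-2 (Clec4n) signal through the adaptor Fc receptor gamma chain (Fcer1g), CLEC5A through DAP12 (Tyrobp), and Dectin-1 (Clec7a) through a tyrosine motif of its own. These paths lead to the kinase SYK and to the complex of CARD9, BCL10 and MALT1, which activates NF-κB. CLEC12A carries an inhibitory motif, while the mannose receptor and MGL1 (Clec10a) bind and take up glycoproteins.

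In cells of Sept2C111A mice the receptor genes did not move together. Clec4e and Clec5a, both for activating receptors, had less RNA than in wild type, and Clec7a and Clec4a3 had more. The other 6, with Clec4d as the most abundant, did not pass the test. The threshold was an adjusted p of 0.05 in the quasi-likelihood test of edgeR, with adjustment over all 12462 genes tested. Of the 10 members 4 passed it, against 6.46% of tested genes. Of these 2 were higher, against 3.43%, and 2 were lower, against 3.03%. The libraries of the groups did not overlap for the same 4 members, against 16.9% of tested genes, or 8.47% in each direction. Over all 10 members the median log2 fold change was 0.12, and that of all tested genes was 0.01. Summed over the 10 genes, normalised read counts (CPM, reads scaled to a common library total) ran from 3581 to 3775 in wild-type and from 3431 to 3876 in Sept2C111A libraries. The ranges overlap, so the sum did not separate the groups although 4 of its members did.

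The promoters of the 4 called genes are shown together with that of Clec4d, the neighbour of Clec4e whose change was not called. Each run holds the 250 bases before an annotated transcript start of the gene, read 5′ to 3′ on its coding strand (RefSeq, GRCm38.p6, the mm10 build). Capitals mark matches on either strand to GAGGAA, a core of sites for the myeloid factor PU.1, or to TTGCNNAA, a C/EBP pattern. For Clec4e the window is chr6:123289872-123290121 on the minus strand, for Clec4d chr6:123261857-123262106 on the plus strand, and for Clec4a3 chr6:122952265-122952514 on the plus strand. For Clec5a it is chr6:40585806-40586055 and for Clec7a chr6:129472780-129473029, both on the minus strand.
Clec4e: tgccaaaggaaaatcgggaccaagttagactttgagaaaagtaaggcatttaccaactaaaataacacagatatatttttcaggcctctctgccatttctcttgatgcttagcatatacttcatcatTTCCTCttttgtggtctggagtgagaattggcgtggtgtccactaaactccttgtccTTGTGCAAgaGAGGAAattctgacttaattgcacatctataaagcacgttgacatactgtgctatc
Clec4d: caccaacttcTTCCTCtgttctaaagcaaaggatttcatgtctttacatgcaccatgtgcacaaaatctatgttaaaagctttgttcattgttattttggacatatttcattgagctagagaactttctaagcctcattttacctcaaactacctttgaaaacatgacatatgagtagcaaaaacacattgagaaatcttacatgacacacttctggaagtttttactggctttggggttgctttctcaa
Clec4a3: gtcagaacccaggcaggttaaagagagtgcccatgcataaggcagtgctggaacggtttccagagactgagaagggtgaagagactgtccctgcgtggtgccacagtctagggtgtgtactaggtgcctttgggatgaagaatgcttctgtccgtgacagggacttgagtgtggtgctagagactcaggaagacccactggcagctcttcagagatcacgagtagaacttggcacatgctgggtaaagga
Clec5a: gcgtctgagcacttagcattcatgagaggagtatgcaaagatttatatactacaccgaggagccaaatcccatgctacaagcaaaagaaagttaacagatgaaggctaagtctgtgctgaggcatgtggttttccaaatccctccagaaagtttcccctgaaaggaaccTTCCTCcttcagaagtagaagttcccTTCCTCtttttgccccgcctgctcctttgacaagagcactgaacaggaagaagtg
Clec7a: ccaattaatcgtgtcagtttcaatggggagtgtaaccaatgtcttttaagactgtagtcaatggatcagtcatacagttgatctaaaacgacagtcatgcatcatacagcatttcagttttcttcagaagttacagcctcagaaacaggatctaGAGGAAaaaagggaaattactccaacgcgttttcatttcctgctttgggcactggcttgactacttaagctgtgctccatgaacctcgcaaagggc
RefSeq promoters matched 8 of the 10 genes, counting the first listed start of each. GAGGAA was found in 7 of these 8 windows, the exception being Clec4a3, and in 23.1% of 27025 promoter windows of all genes. TTGCNNAA was found before Clec4e and Clec12a only, and in 9.55% of all windows. Patterns for STAT (TTCNNNGAA), NF-κB and interferon response elements matched 0 of the 8 windows, against 7.18%, 3.82% and 3.04% of all. An AP-1 pattern (TGANTCA) matched Clec12a alone, against 6.87%. No matches of different patterns overlapped in these windows. The Clec4a3 entry has another start downstream, before which GAGGAA was found. The first listed start of Clec7a lies a few bases inside the gene's annotated span, and the window before its other start, at the edge of that span, also holds 1 match to GAGGAA. The first listed start of Clec12a likewise lies inside its gene. These matches describe letters in a window and do not show binding.

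Clec4e encodes Mincle, a receptor of mycobacterial cord factor and of dead cells. Its level was 939, 988, 892 and 855 CPM in wild-type libraries 1 to 4. In Sept2C111A libraries 1 to 4 it was 669, 562, 507 and 575 CPM. Every Sept2C111A library lay below every wild-type library, and the lowest was library 3. The mean fell from 918 ± 57.9 to 578 ± 67.2 CPM (± gives the SD, n = 4, here and in later values). This was a log2 fold change of -0.67 (SE 0.088, edgeR adjusted p = 0.0018) and a level of 0.63 times wild type. Clec4e lies on chromosome 6 at 123281789 to 123289871 (mm10, as for all positions).

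**Figure D1:**
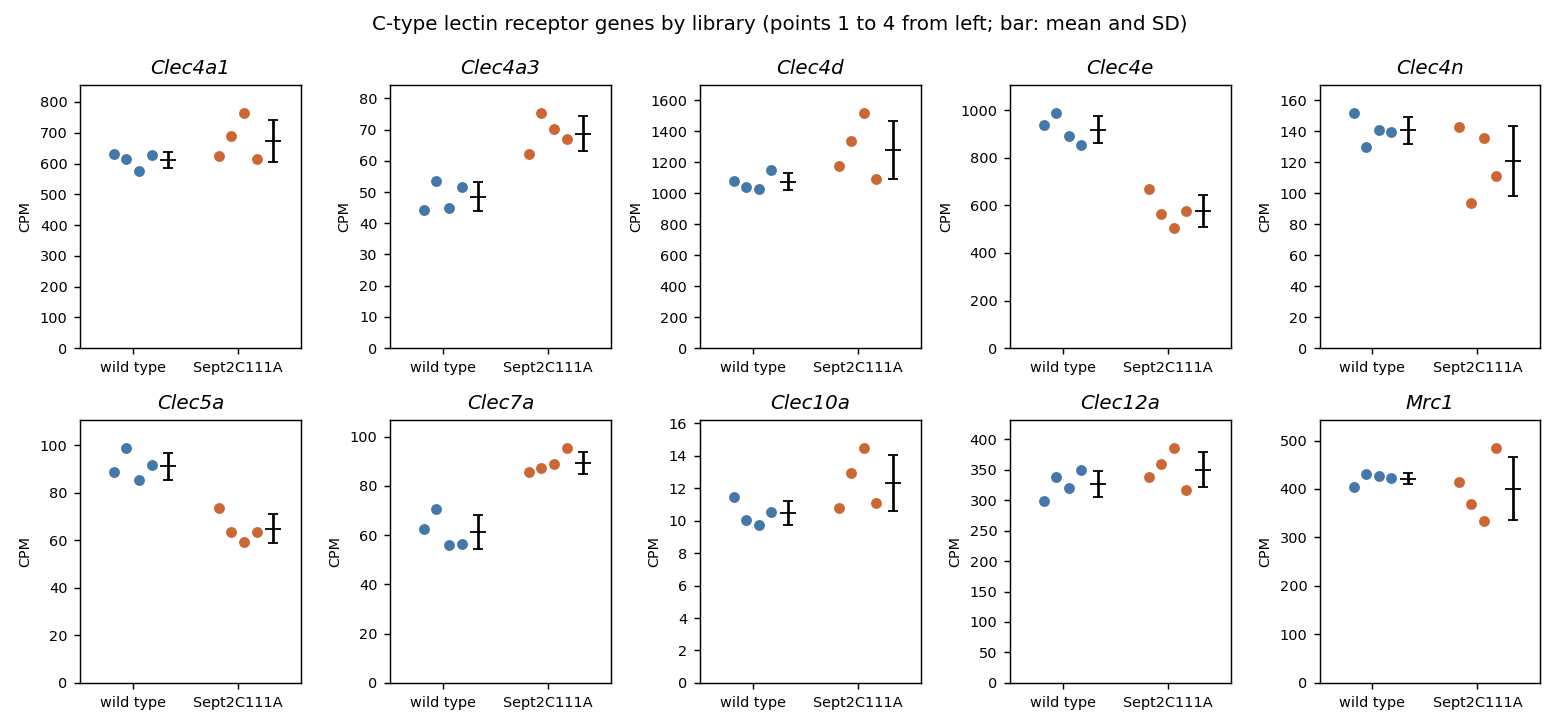
Normalised counts (CPM) of the 10 receptor genes, with 1 point per library (1 to 4 from left) and the mean with its SD as a black bar. The groups do not overlap for Clec4e, Clec5a, Clec7a and Clec4a3.

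Clec4d encodes MCL, which binds Mincle and helps to bring it to the cell surface. The gene measured 1079, 1041, 1029 and 1149 CPM in the wild-type libraries. It measured 1175, 1333, 1516 and 1091 CPM in Sept2C111A libraries 1 to 4. Libraries 2 and 3 were highest and library 4 lay within the wild-type range. The log2 fold change of 0.25 (SE 0.099, edgeR adjusted p = 0.15) was not called, and its unadjusted 95% interval ran from 0.03 to 0.47. Without Sept2C111A library 4 the change was 0.33 and passed (adjusted p = 0.031), and without Sept2C111A libraries 2 and 3 it was 0.08 (adjusted p = 0.57). Sept2C111A libraries 2 and 3 also stood apart from libraries 1 and 4 on the first principal component over all tested genes, at 23.2 and 31.4 against 2.12 and -2.84.

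Clec4d and Clec4e are neighbours whose 3′ ends face each other, with 6520 bases between them, and the difference in their change was tested within libraries. The ratio of Clec4d to Clec4e CPM was 1.15, 1.05, 1.15 and 1.34 in wild-type libraries 1 to 4. It was 1.76, 2.37, 2.99 and 1.90 in Sept2C111A libraries 1 to 4. The ratio was higher in all 4 Sept2C111A libraries than in any wild-type library. On the log2 scale, with 0.5 CPM added to each level, the difference was 0.91 (SE 0.19), or 1.88-fold. The exact two-sided permutation test gave p = 0.0286, the smallest that 4 against 4 allows, and 0.0357 after Benjamini-Hochberg adjustment over the 5 ratios tested. Clec4e alone gave the same unadjusted p in this test, and the groups did not overlap for 16.9% of tested genes. The p of the ratio is therefore not independent of the call of Clec4e. This also holds for each later ratio that includes a called gene. Without Sept2C111A libraries 2 and 3 the difference was 0.64, where the smallest possible p is 0.1333.

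Clec4n encodes Dectin-2, a receptor of fungal mannans. Its level was 152, 130, 141 and 140 CPM in wild-type and 143, 93.7, 136 and 111 CPM in Sept2C111A libraries. The lowest values were those of Sept2C111A libraries 2 and 4, while libraries 1 and 3 lay in the wild-type range. The log2 fold change was -0.22 (SE 0.12, edgeR adjusted p = 0.28), with a 95% interval from -0.48 to 0.04. The ratio of Clec4n to Clec4e was 0.132 to 0.163 in wild-type and 0.167 to 0.267 in Sept2C111A libraries. It rose by 0.44 on the log2 scale (SE 0.16, exact permutation p = 0.0286, adjusted 0.0357). Relative to either Clec4d or Clec4n, which both lie at lower coordinates in the cluster, Clec4e was therefore lower in each Sept2C111A library than in any wild-type library.

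**Figure D2:**
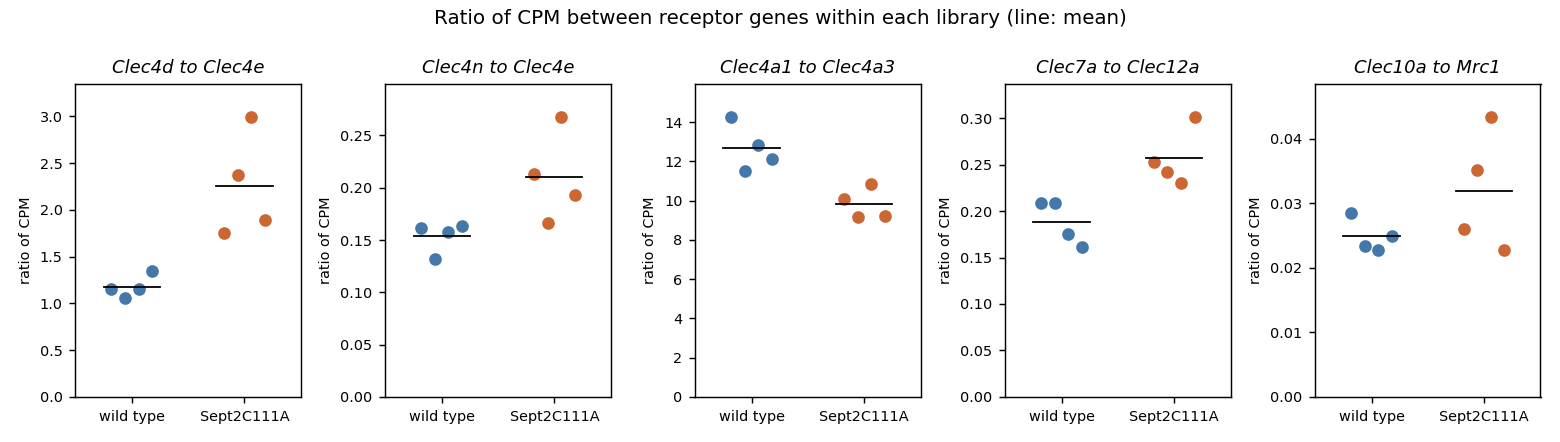
Ratio of CPM between 5 pairs of receptor genes within each library, with the group mean as a line. The ratio of Clec4d to Clec4e runs from 1.05 to 1.34 in wild-type and from 1.76 to 2.99 in Sept2C111A libraries, and only Clec10a to Mrc1 overlaps between the groups. Each of the other ratios joins a called gene to a gene that was not called, and so is not independent of that call.

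Clec5a encodes an activating receptor coupled to DAP12. Wild-type libraries gave 88.6, 98.9, 85.2 and 91.7 CPM. Sept2C111A libraries gave 73.7, 63.6, 59.1 and 63.3 CPM. All Sept2C111A values lay below all wild-type values, and Sept2C111A library 1 was nearest to wild type, as it was for Clec4e. Clec5a fell by 0.49 on the log2 scale (SE 0.079, edgeR adjusted p = 0.0055). Clec5a lies on chromosome 6 at 40574898 to 40585805, far from the other members on that chromosome.

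Clec7a encodes Dectin-1, the receptor of fungal β-glucan. Its level was 62.5, 70.6, 56.0 and 56.4 CPM in wild-type libraries. It was 85.7, 87.3, 88.9 and 95.5 CPM in Sept2C111A libraries. The groups did not overlap, and the Sept2C111A libraries differed little among themselves, those numbered 2 and 3 included. Its rise was 0.54 on the log2 scale (SE 0.082, edgeR adjusted p = 0.0039), or 1.46-fold. Without Sept2C111A libraries 2 and 3 it was 0.56 (adjusted p = 0.0089). Activating receptor genes therefore moved in opposite directions, Clec7a up and Clec4e and Clec5a down.

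Clec12a, for an inhibitory receptor of uric acid crystals, lies on chromosome 6 at 129349783 to 129365303, in the same gene cluster as Clec7a. It measured 300, 338, 320 and 349 CPM in wild-type and 339, 360, 386 and 317 CPM in Sept2C111A libraries. The groups overlapped, and the log2 fold change of 0.10 (SE 0.077, edgeR adjusted p = 0.45) had a 95% interval from -0.07 to 0.27. The ratio of Clec7a to Clec12a was 0.209, 0.209, 0.175 and 0.162 in wild-type and 0.253, 0.243, 0.230 and 0.301 in Sept2C111A libraries. It rose by 0.44 on the log2 scale (SE 0.12, exact permutation p = 0.0286, adjusted 0.0357). The 4 other genes listed between them, Clec12b, Clec1b, Clec9a and Clec1a, had at most 11 reads in any library and were not tested.

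Clec4a3 and Clec4a1 belong to the family of the dendritic cell immunoreceptor, DCIR. Clec4a3 measured 44.3, 53.5, 44.8 and 51.7 CPM in wild-type libraries. It measured 62.1, 75.3, 70.3 and 66.9 CPM in Sept2C111A libraries, each above every wild-type value. Its rise was 0.50 on the log2 scale (SE 0.085, edgeR adjusted p = 0.0075), or 1.41-fold. Clec4a1 gave 631, 615, 575 and 628 CPM in wild-type and 626, 690, 764 and 615 CPM in Sept2C111A libraries. Only Sept2C111A libraries 2 and 3 exceeded the wild-type range, and the change of 0.14 (SE 0.079, adjusted p = 0.30; 95% interval -0.04 to 0.31) was not called. The ratio of Clec4a1 to Clec4a3 fell by 0.36 on the log2 scale (SE 0.088, exact permutation p = 0.0286, adjusted 0.0357). Clec4a2, a gene of this family that carries an inhibitory motif, measured 107 ± 7.95 and 105 ± 9.87 CPM (log2 fold change -0.02, SE 0.081, adjusted p = 0.91). The Clec4a genes are close copies, and the split of reads among them by the counting model is uncertain.

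Clec4a1, Clec4a3, Clec4n, Clec4d and Clec4e lie within 368 kb of chromosome 6, from 122921848 to 123289871. The files list 9 genes in this interval, of which 7 were tested, 1 was higher (Clec4a3) and 1 lower (Clec4e). Besides the members, Clec4b1 (1.95 ± 0.417 and 2.36 ± 0.356 CPM) and Clec4a2 were tested and not called. Clec4a4 and Clec4b2 had at most 12 reads in any library. The 2 called genes are the second and the last in this order. Clec4a1 beside Clec4a3 and Clec4d beside Clec4e were not called. Clec4a4, on the other side of Clec4a3, was not tested, and genes beyond Clec4e lie outside the interval and were not examined. None of the 10 members overlaps another gene in the GENCODE M21 annotation, except that Mrc1 holds the microRNA gene Mir511 on the same strand.

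**Figure D3:**
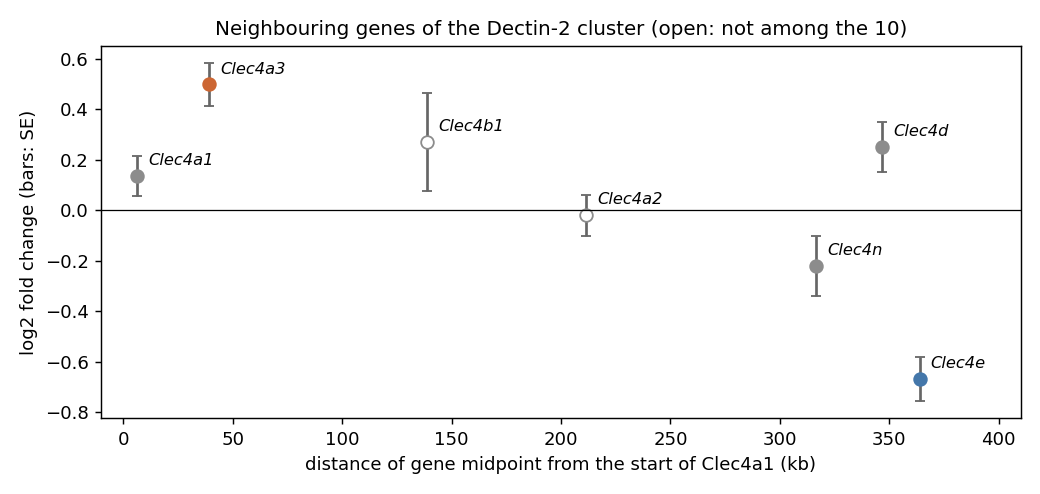
Log2 fold change (Sept2C111A against wild type, bars: SE) of the 7 tested genes of the Dectin-2 cluster against distance from the start of Clec4a1 in kb. Coloured points are called, open points are Clec4b1 and Clec4a2, and Clec4d at 0.25 stands beside Clec4e at -0.67.

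The endocytic receptor genes were not called. Mrc1, for the mannose receptor, measured 404, 430, 427 and 423 CPM in wild-type and 413, 368, 334 and 485 CPM in Sept2C111A libraries. Sept2C111A libraries lay both below and above the narrow wild-type range. The log2 fold change was -0.07 (SE 0.10, edgeR adjusted p = 0.70; 95% interval -0.30 to 0.15), and it was 0.09 without Sept2C111A libraries 2 and 3. Clec10a, for the galactose-type lectin MGL1, gave 11.5, 10.1, 9.76 and 10.5 CPM in wild-type and 10.8, 12.9, 14.5 and 11.1 CPM in Sept2C111A libraries. Its change of 0.23 (SE 0.11, adjusted p = 0.22; 95% interval -0.01 to 0.48) was 0.06 without Sept2C111A libraries 2 and 3. The ratio of Clec10a to Mrc1 differed by 0.30 on the log2 scale (SE 0.22, exact permutation p = 0.26), with overlapping groups. Mgl2, the close relative of Clec10a, was at 1.24 ± 0.221 and 0.575 ± 0.212 CPM. Its log2 fold change of -1.09 (SE 0.29) came next to the threshold, at an adjusted p of 0.050260 in edgeR, and DESeq2 and limma voom called it (adjusted p = 0.026 and 0.039).

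**Figure D4:**
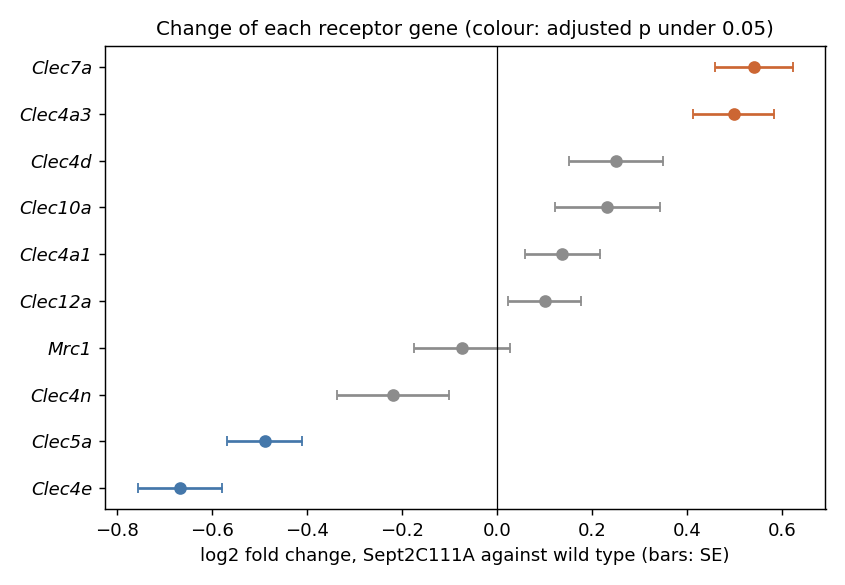
Log2 fold change of each receptor gene in Sept2C111A against wild type, with its SE from edgeR. Clec7a (0.54) and Clec4a3 (0.50) lie highest, Clec5a (-0.49) and Clec4e (-0.67) lowest, and grey points were not called.

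Levels of different genes were compared as CPM per kilobase, dividing by the mean length of the coding transcripts. In wild type the order was Clec4d, at 812 ± 40.6 CPM per kilobase, then Clec4e (566 ± 35.6), Clec4a1 (393 ± 16.4), Clec12a (197 ± 13.1), Clec4n (145 ± 9.20), Mrc1 (78.4 ± 2.16), Clec5a (51.9 ± 3.32), Clec4a3 (50.5 ± 4.92), Clec7a (41.1 ± 4.59) and Clec10a (9.87 ± 0.713). The library ranges of Clec5a, Clec4a3 and Clec7a overlapped from each to the next, and those of the other neighbours did not. In Sept2C111A libraries Clec4e, at 356 ± 41.4 CPM per kilobase, stood after Clec4a1, at 432 ± 44.1, with overlapping ranges. Clec5a, at 37.0 ± 3.52, stood after Clec4a3 (71.4 ± 5.80) and Clec7a (59.9 ± 2.88). Clec4e made up 24.1% of the summed level per kilobase of the 10 genes in wild type and 15.2% in Sept2C111A, and Clec4d 34.6% and 41.2%. With the longest transcript as the length, Clec4a1 already stood above Clec4e, and Clec4a3 and Clec7a above Clec5a, in wild type, so these places depend on the length used.

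**Figure D5:**
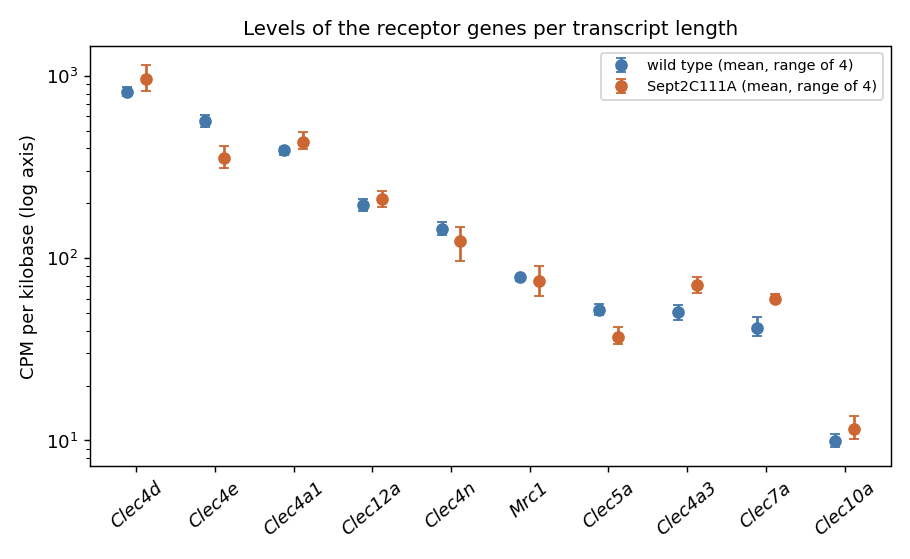
Level of the 10 receptor genes in CPM per kilobase of transcript on a log axis, with points for the mean and bars for the range of 4 libraries. Clec4e falls from 566 in wild type to 356 in Sept2C111A, and Clec10a is lowest in both groups, at 9.87 and 11.6.

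Adaptor and signalling genes of these receptors were mostly not called. Of 39 tested, edgeR called 0 higher and 2 lower, or 5.13% against 6.46% of all tested genes, with a median log2 fold change of 0.05. At an unadjusted edgeR p under 0.05, 6 were higher and 6 lower, where 3092 of the 12462 genes differed in either direction. DESeq2 called 1 higher and 3 lower, against 11.5% of all genes by that tool. With limma voom 0 were higher and 2 lower, against 10.9%. Malt1, the protease of the CARD9 complex, was lower, at 26.0 ± 4.35 CPM against 41.4 ± 0.701 CPM in wild type (adjusted p = 0.0050, log2 fold change -0.67, SE 0.11). Rasgrp1, a Ras exchange factor gene, went from 7.39 ± 1.23 to 4.86 ± 0.900 CPM, and its call (adjusted p = 0.049915) was lost on leaving out any 1 library other than Sept2C111A library 4. The shared adaptor gene Fcer1g measured 1998, 1863, 1899 and 2004 CPM in wild-type and 2100, 2644, 2829 and 1932 CPM in Sept2C111A libraries (log2 fold change 0.29, SE 0.11, adjusted p = 0.15). Tyrobp measured 862 ± 46.3 and 1084 ± 185 CPM (log2 fold change 0.33, SE 0.11, adjusted p = 0.092), higher in 4 of 4 Sept2C111A libraries. Syk measured 632 ± 26.9 and 564 ± 35.1 CPM (log2 fold change -0.16, SE 0.067, adjusted p = 0.16), lower in 4 of 4. Card9 was at 32.2 ± 1.47 and 37.5 ± 6.48 CPM (adjusted p = 0.25). Without Sept2C111A library 4 edgeR called Fcer1g, Tyrobp and Card9 higher and 5 genes lower, in a fit that called 2077 of 12583 genes. Without Sept2C111A library 1 it called Tyrobp higher.

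Of 13 genes that restrain these signals, edgeR called 0, DESeq2 called 1 higher and limma voom 0. Over all tested genes these tools called 6.46%, 11.5% and 10.9%, so few calls among 13 genes do not set this list apart. At an unadjusted edgeR p under 0.05, 4 of the 13 differed, where 3092 of the 12462 genes did. The most abundant, the inhibitory receptor gene Pirb, measured 899 ± 61.9 and 952 ± 95.5 CPM (log2 fold change 0.08, SE 0.085, adjusted p = 0.58). Among genes that these receptors are known to induce, several chemokine and cytokine genes were lower. Of 18 tested, 9 fell and 0 rose, or 50% against 6.46% of all, with a median log2 fold change of -0.45. At an unadjusted p under 0.05, 2 were higher, DESeq2 called 0 of them higher and limma voom 1. Acod1, which makes itaconate, was lower, at 456 ± 85.9 CPM against 857 ± 43.2 CPM in wild type (adjusted p = 0.0017, log2 fold change -0.91, SE 0.12). Tnf, Cxcl2 and Ccl3 fell with log2 fold changes of -0.82, -0.62 and -0.57. TNF-α itself induces many of these genes, and no receptor ligand was given according to the labels. With wild-type library 3 or Sept2C111A library 2 left out 6 falls were called, and the 6 were Acod1, Ccl3, Cxcl1, Cxcl2, Il12b and Tnf each time.

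Mrc1 and Clec10a are also used as markers of alternative activation, the state that interleukin 4 induces. Of 17 other tested genes of that state, 1 rose and 1 fell, or 11.8% against 6.46% of all, with a median log2 fold change of -0.03. Pparg, a lipid-sensing nuclear receptor gene, was higher, at 26.0 ± 2.65 CPM against 18.5 ± 0.996 CPM in wild type (edgeR adjusted p = 0.0093, log2 fold change 0.49, SE 0.087). Ccl22, a chemokine gene, went from 5.26 ± 1.32 to 2.84 ± 0.450 CPM (log2 fold change -0.89, SE 0.20, adjusted p = 0.029). The call did not hold when wild-type library 2, 3 or 4 was left out, nor without Sept2C111A library 3, with adjusted p from 0.054 to 0.11. It was also lost in limma voom (adjusted p = 0.077), with the replicate number as a block (0.056) and without both Sept2C111A libraries 2 and 3 (0.061). Arg1, Retnla, Chil3 and Ear2, which are induced strongly in that state, were too low to be tested.

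Among 20 transcription factor and growth factor receptor genes that bear on the expression of the receptors, Irf8 rose and Tfec fell, or 10% against 6.46% of all. Irf8, a myeloid lineage factor gene, went from 116 ± 3.50 to 157 ± 14.9 CPM (log2 fold change 0.44, SE 0.074, edgeR adjusted p = 0.0070). Tfec, of the MITF family, went from 67.7 ± 2.69 to 42.9 ± 2.96 CPM (log2 fold change -0.66, SE 0.067, adjusted p = 0.00048). Cebpb, which is required for Mincle induction in other settings, measured 486 ± 32.4 and 458 ± 57.4 CPM (log2 fold change -0.09, adjusted p = 0.61) and was named after its values were seen. The genes with profiles most like each called member were sought among 9638 genes, by the root mean square difference over the 8 libraries of log2 CPM centred on the wild-type mean. Nearest to Clec4e was Tfec (0.055), and nearest to Clec5a were Zfp729a (0.049) and Daam1 (0.058). Nearest to Clec7a were Bmf (0.077) and Crebrf (0.081), and nearest to Clec4a3 were Coq8a (0.046) and Ms4a6c (0.062). The median difference over genes was 0.379 to 0.510. A nearest gene has the smallest difference by construction, so lying below this median is no evidence of a link.

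Other C-type lectin genes were few at these depths, with 20 of 52 found passing the filter on low counts. Of these 20, edgeR called 2 higher and 2 lower, or 20.0% against 6.46% of all, with a median log2 fold change of -0.07. Cd93 rose from 213 ± 7.03 to 261 ± 13 CPM and Cd72, a co-receptor of B cells and macrophages, from 186 ± 9.31 to 255 ± 42.0 CPM. Cd69, an activation marker gene, fell from 30.6 ± 3.55 to 18.8 ± 4.22 CPM and Mrc2, the collagen-binding relative of Mrc1, from 101 ± 7.94 to 71.0 ± 12 CPM. Unlike the calls of the 4 members, these did not all hold when single libraries were left out. With wild-type library 1 or 3, or Sept2C111A library 2, left out, edgeR called 0 of these genes higher and 1 lower. These fits called 2.24%, 2.12% and 2.86% of all tested genes. With wild-type library 2 left out edgeR called 1 higher and 2 lower, with wild-type library 4 left out 1 and 0, and with Sept2C111A library 4 left out 3 and 5. Those fits called 3.77%, 2.99% and 16.5% of all tested genes, so the counts shift along with the calls over all genes.

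Each library measured a whole culture, so fewer cells of a type and less RNA per cell cannot be told apart. Libraries held 19543958 to 21288493 expected counts each. All 12 macrophage markers were tested, with Csf1r at 3226 ± 118 and 3237 ± 250 CPM and Adgre1 at 1902 and 1653 CPM on average. Of these, 2 (Fcgr3 and Ctss) were called higher and 0 lower, or 16.7% against 6.46% of all tested genes. At an unadjusted edgeR p under 0.05, 9 of the 12 differed, in both directions, against 3092 of all 12462. Among those not called, Cd14 (1555 and 1374 CPM) and Lyz2 (14365 and 12366 CPM) were lower and Cd68 (1957 and 2184 CPM) higher, without overlap. Their edgeR adjusted p was 0.15, 0.12 and 0.15, and the groups did not overlap for 16.9% of all tested genes. The mean log2 CPM of the 12 was 9.57 to 9.65 in wild-type and 9.61 to 9.75 in Sept2C111A libraries. Against the mean log2 CPM of these 12 markers, Clec4e and Clec5a differed by -0.76 and -0.57 and Clec7a and Clec4a3 by 0.46 and 0.41, and the groups did not overlap for any of the 4. These 4 did not overlap before this subtraction either, so its outcome was largely settled beforehand. The share of all genes not overlapping on this scale was not computed. The 12 stromal markers summed to 3863 to 4956 CPM in wild-type and 2986 to 3848 CPM in Sept2C111A libraries, without overlap. Of 11 tested, edgeR called 2 lower and 0 higher, or 18.2% against 6.46% of all tested genes. Of these 11, 7 had an unadjusted p under 0.05 and 0 had a positive log2 fold change, with a median of -0.40. The part of the stromal markers in the changes of the members was not tested. Neutrophils also express Clec4d and Clec4e, and the 12 neutrophil markers summed to 9.56 to 13.8 and 9.36 to 15 CPM, with 5 tested and 0 called. Ly6g, Mpo and Elane were at 0 or a single read in every library. Mmp8 was the most abundant, at 7.50 ± 1.68 and 5.72 ± 0.777 CPM, and Ngp measured 0.474 ± 0.204 and 1.13 ± 0.805 CPM (edgeR adjusted p = 0.17 and 0.16). The 8 monocyte markers, 4 of them tested and 0 called, summed to 155 to 206 and 78.2 to 158 CPM, lowest in Sept2C111A libraries 2 and 3. F13a1 (138 and 77.4 CPM on average) made up most of this sum. Of the 4 tested, 1 had a positive log2 fold change, Ccr2 (2.44 and 3.27 CPM). The 11 dendritic cell markers, 8 of them tested and 1 (Fscn1) lower, or 12.5% of those tested, summed to 344 to 384 and 267 to 330 CPM. Cd83 (180 and 164 CPM) and Fscn1 (172 and 127 CPM) made up most of that sum, 4 of the 8 had a positive log2 fold change, and Dpp4 measured 1.64 ± 0.744 and 4.91 ± 2.63 CPM (edgeR adjusted p = 0.057). Their part was not tested either. Osteoclast markers summed to 222 to 275 and 167 to 245 CPM, and lymphoid, mast cell and erythroid markers to at most 11.5 CPM in any library. Sept2, listed as Septin2, measured 228, 226, 216 and 234 CPM in wild-type and 187, 195, 207 and 163 CPM in Sept2C111A libraries (log2 fold change -0.27, SE 0.076, edgeR adjusted p = 0.063), and gene counts cannot show the exchanged codon.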

How the data were processed

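Poly(A)-selected RNA of cultured macrophages was sequenced in 8 libraries, 4 per genotype. The authors deposited expected counts (estimated reads per gene symbol, not whole numbers) for 17364 genes. Tools named in the submitters' processing notes are RSEM 1.3.1, Bowtie2 and DESeq2 1.4.5, with the build mm10. Annotation, strandedness and filters were not given in the sources used here, so antisense reads cannot be told apart and close copies share reads.

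Counts were rounded, filtered with filterByExpr (minimum count 10; all 10 members passed), normalized by TMM and tested with edgeR 4.0.16 in R 4.3.3 (quasi-likelihood, group as the only term, two-sided, Benjamini-Hochberg over 12462 genes). The 95% intervals use the t quantile at each gene's degrees of freedom in that test. A gene with 3 counts lies at 0.141 to 0.154 CPM, which covers counting error only. Ratios used log2(CPM + 0.5). Transcript lengths come from GENCODE M21 and positions from RefSeq, both mm10. Of 285 list entries 269 were found. Library pairs differed by a mean chi-square per gene of at least 3.87, where noise gives about 1, over genes with 200 or more reads, so no library copied another. The fit was tested on simulated data. Alternatives were RLE size factors, no filter, DESeq2 1.42.0, limma 3.58.1 voom with sample weights, a replicate block, libraries left out, pseudocounts, another length and, added after the data were seen, levels against macrophage markers.

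Members, lists and the naming rule were chosen with earlier results of these data known. The rule names all members, Fcer1g, Tyrobp, Syk, Card9, Clec4a2 and Mgl2, and from each list up to 4 called genes with the smallest adjusted p, or its most abundant gene where none was called. It also names the 2 genes of at least 5 CPM nearest to each called member, of which 1 is not reported here.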

Additional observations from a re-analysis of the deposited data

Results flagged for a closer look

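Among the 64 groups of 4 libraries examined for the genes named by the rule, 2 held a library far from the other 3, by a gap above the 95% critical value of Dixon's test. Chance alone gives about 1 in 20. Syk was at 672 CPM in wild-type library 2, against 617 to 619 CPM in the other wild-type libraries. Ccl22 was at 3.29 CPM in wild-type library 1, against 5.68 to 6.08 CPM in the others. No library of any of the 10 receptor genes stood apart in this way.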

How the results depend on the processing

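The 2 falls (Clec4e and Clec5a) and 2 rises (Clec7a and Clec4a3) held under all 14 alternative analyses, with edgeR, DESeq2 or voom adjusted p of at most 0.010, 0.024, 0.022 and 0.041. Leaving out 1 library gave 2 to 3 rises and 2 falls. The 8 leave-one-out ranges of log2 ratio differences were 0.77 to 1.02 for Clec4d to Clec4e, 0.31 to 0.54 for Clec4n to Clec4e, -0.41 to -0.31 for Clec4a1 to Clec4a3, and 0.36 to 0.50 for Clec7a to Clec12a. There the smallest possible p is 0.0571, so these tests could not pass. Without Sept2C111A libraries 2 and 3 the 4 differences were 0.64, 0.41, -0.39 and 0.56 (smallest possible p 0.1333).

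The labels do not say whether the numbers pair the libraries. Correlations of same-numbered deviations from the group means were 0.15, 0.10, -0.02 and -0.31. Those of differently numbered libraries ran from -0.30 to 0.32, so the correlations cannot decide whether a pairing exists. With the replicate block, 1 other lectin was higher, 1 signalling gene lower and 0 alternative activation genes lower, and the calls of the 10 members were the same. The block called 494 genes in all, against 805 without it. DESeq2 called 1428, voom 1353, and fits without wild-type library 1, 2, 3 or 4 called 281, 475, 266 and 376. Leaving out Sept2C111A library 4 gave 2077 calls, leaving out library 2 gave 361, and leaving out libraries 2 and 3 of that group gave 492.

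Without Sept2C111A libraries 2 and 3, 1 other lectin was higher and 1 lower, 1 signalling gene lower and 0 alternative activation genes lower. DESeq2 called 1 signalling gene higher, voom 1 target gene higher, and RLE size factors and DESeq2 each 2 alternative activation genes lower. Leaving out 1 library gave 0 to 3 rises and 0 to 5 falls of other lectins, 0 to 3 rises and 1 to 5 falls of signalling genes, 0 to 1 rises of target genes and 0 to 2 falls of alternative activation genes. The causes were not tested.

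With the longest transcript, wild-type and Sept2C111A levels per kilobase were 37.3 and 52.8 for Clec4a3, 365 and 230 for Clec4e, 114 and 98.2 for Clec4n, 24.3 and 17.3 for Clec5a, 27.0 and 39.2 for Clec7a, 4.49 and 5.28 for Clec10a, and 131 and 140 for Clec12a; this follows from the greater length. Depth limits Clec10a, with 207 to 285 reads per library, more than the other 9 genes, with at least 928.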
